A study of Dunaliella salina with 12 samples.

Results

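Sorbitol-treated cells of Dunaliella salina were set beside cells in control medium, as the hypertonic part of a study on salt, osmotic and oxidative stress. The rule took the 3 libraries titled Sorbitol and the 3 titled Control, 6 of the 12 libraries, and genes reaching 1 FPKM in 3 or more of these 6. It left 21985 of the 82333 assembled genes for testing. Both groups were strain 435, labelled as 5 days old and grown at 25 °C with 16 h of light at 8000 lx and 8 h of dark. Cells were spun down and moved for 2 h into fresh medium, which the labels give as holding 1.5 M NaCl. Control cells received this medium alone, and sorbitol cells received it with 1.5 M sorbitol. The other 6 libraries came from cells given a further 1.5 M NaCl (3 libraries) or 0.4 mM H2O2 (3 libraries), and their values are given here for reference. Nothing in the labels ties replicates to separate cultures, so p-values here speak of library-to-library spread, part of which may be technical.

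D. salina is a unicellular green alga without a rigid cell wall. Its cells shrink when the outside becomes more concentrated, and they regain volume by building up glycerol inside, with carbon drawn from photosynthesis and from starch in the chloroplast. Sorbitol is an uncharged sugar alcohol, so it raises the osmotic strength of the medium without raising its ion content. The deposited IDs are those of an assembled transcriptome and are not paired with gene names. Matched against 16683 annotated genes of Dunsal1 v. 2, 0 IDs were found, so the response is described by level and direction, and no function or sequence is given for any gene.

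The values were read as FPKM, sequenced fragments scaled to transcript length and to the mapped total. They are shares of what was sequenced, so a rise of one gene lowers the others, and less RNA per cell cannot be told apart from fewer cells. Summed FPKM was 1112241 to 1133348 in the control libraries and 1065190 to 1072173 in the sorbitol libraries. The files hold no absolute depth. Relative depth, estimated from the spacing of values among low genes, was 0.979, 0.937 and 1.18 in control replicates 1, 2 and 3, and 0.928, 0.935 and 1.04 in sorbitol replicates 1, 2 and 3, around a mean of 1 over the 6. Pearson correlations of log2(FPKM + 1) across the tested genes were 0.961 to 0.964 within control, 0.963 to 0.966 within sorbitol and 0.93 to 0.941 between them. They run across genes, which are no replicates, and serve as a description.

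Sorbitol raised 2376 genes and lowered 2005, with 17604 not passing the test. The rises were mostly small, whereas the large changes were mostly falls. The test was limma on log2(FPKM + 1) with a Benjamini-Hochberg adjusted p of 0.05 as the threshold. Calls made up 19.9% of the tested genes, higher calls 10.8% and lower calls 9.12%. The median log2 fold change was 0.56 among the higher genes, -0.78 among the lower ones and 0.08 over all tested genes, with a median SE of 0.16. A rise of at least 1 log2 was called for 314 genes (1.43% of those tested) and a fall of at least 1 log2 for 730 (3.32%). That was 13.2% of the higher genes and 36.4% of the lower ones. The filter bears on these counts. Every sorbitol library was under 1 FPKM in 332 of the 730 falls, and every control library in 93 of the 314 rises. Such genes were tested only because all 3 libraries of the other group reached 1 FPKM. With a filter on the H2O2 libraries instead, the large changes were 206 rises and 432 falls.

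Changes under 0.5 log2 numbered 942 higher and 505 lower. Between 0.5 and 1 log2 there were 1120 higher and 770 lower genes. From 1 to 2 log2 the balance turned, with 268 higher and 608 lower, and it stayed that way from 2 to 3 log2 (36 and 98) and at 3 log2 or more (10 and 24). The 3 sorbitol values lay above the 3 control values in 5092 tested genes (23.2%) and below them in 3489 (15.9%). Of the called genes, 2374 of the 2376 higher and 2004 of the 2005 lower had no overlap between the groups.

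The balance of all calls depended on how the libraries were scaled, whereas the excess of large falls did not turn. As deposited, 54.2% of calls were higher. Median-ratio scaling, which sets the typical gene equal between libraries, gave 1528 higher and 2388 lower genes (39% higher), and scaling to equal sums gave 3424 higher and 1762 lower (66%). Large falls outnumbered large rises under both, by 830 to 257 and by 660 to 395. The count of calls was 2703 without control replicate 1 (1344 higher, 1359 lower), 2504 without control replicate 2 (1253 higher, 1251 lower), 2768 without sorbitol replicate 1 (1231 higher, 1537 lower) and 2724 without sorbitol replicate 3 (1356 higher, 1368 lower). Without control replicate 3 the count was 3119 (1642 higher, 1477 lower), and without sorbitol replicate 2 it was 3465 (1909 higher, 1556 lower). Each of these fits has fewer libraries.

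**Figure D1:**
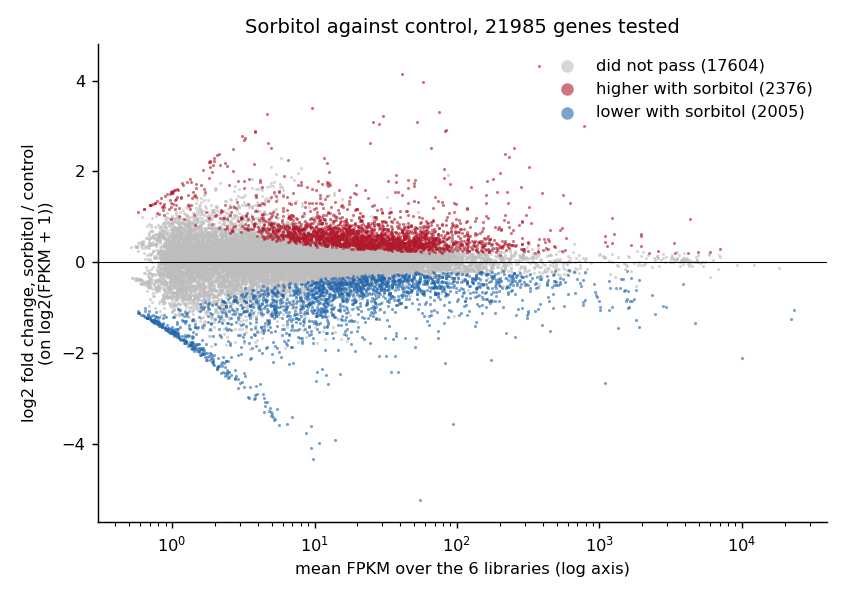
Each point is 1 of the 21985 tested genes, with its mean FPKM over the 6 libraries on a log axis and its log2 fold change (sorbitol over control, on log2(FPKM + 1)) on the vertical axis. The 2376 genes called higher are red, the 2005 called lower are blue and the rest are grey. At the left, an arm of blue points runs downward, and the red arm opposite is sparser. On this scale a gene listed near 0 with sorbitol can fall only as far as its control level allows. The falls below -4 were of genes with control means of 108.8, 19.6 and 18.8 FPKM, not of the lowest genes.

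Genes of middle and high expression were called more often than low ones. Under a mean of 2 FPKM over the 6 libraries, 86 of 3650 genes rose (2.36%) and 271 fell (7.42%). From 2 to 5 FPKM, 137 of 3815 rose and 258 fell. From 5 to 20 FPKM, 881 of 8388 rose (10.5%) and 633 fell (7.55%). From 20 to 100 FPKM, 1041 of 4958 rose (21%) and 555 fell (11.2%), the highest share of rises among the 6 bands as deposited. From 100 to 1000 FPKM, 212 of 1015 rose (20.9%) and 251 fell (24.7%). At 1000 FPKM and over, 19 of 159 rose (11.9%) and 37 fell (23.3%). The precision differed along the same axis. The median SE of a log2 fold change was 0.34 under 2 FPKM, 0.15 from 5 to 20 FPKM and 0.07 at 1000 FPKM and over, so smaller changes could pass among abundant genes.

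With the level taken over the 6 libraries, falls outnumbered rises below 5 FPKM under each of the 3 scalings. The band under 2 FPKM had 76 rises and 274 falls under median-ratio scaling and 111 and 270 with equal sums. Above 5 FPKM the sign of the balance went with the scaling. From 20 to 100 FPKM there were 613 rises and 708 falls under median-ratio scaling, against 1471 and 446 with equal sums. At 1000 FPKM and over the counts were 8 and 38, and 39 and 36. The order of the falls in the lowest bands also depended on which libraries set the level. Ranked by the H2O2 libraries, which belong to neither group, genes under 2 FPKM had 122 rises and 299 falls, and genes from 2 to 5 FPKM had 156 rises and 143 falls. Ranked by the control libraries, genes under 2 FPKM had 151 rises and 105 falls, and genes from 2 to 5 FPKM had 206 and 287. A gene high in control leaves the lowest band in this ranking, and the part of this was not tested. The filter itself has a part. A gene under 1 FPKM in all libraries of one group was tested only if all 3 of the other group reached it. With genes filtered instead on at least 1 FPKM in at least 2 of the H2O2 libraries, a choice made after the data were seen, 206 genes were higher by at least 1 log2 and 432 lower.

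**Figure D2:**
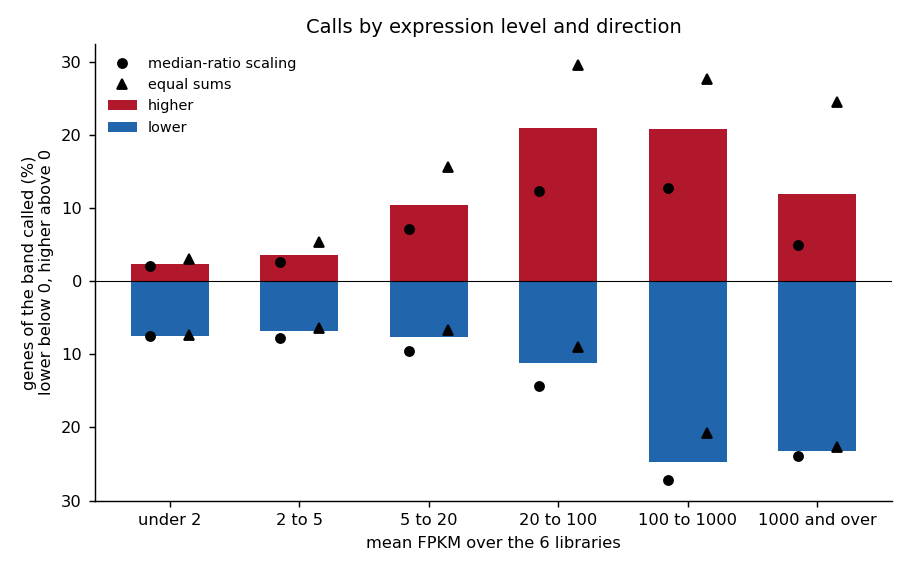
Bars give the share of each band's genes called higher (red, above 0) and lower (blue, below 0) with sorbitol, in bands of mean FPKM over the 6 libraries, and symbols give the same shares under median-ratio scaling (circles) and equal sums (triangles). From 20 to 100 FPKM, 21% of genes were higher and 11.2% lower as deposited, and the symbols above 5 FPKM lie well apart.

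The large rises and large falls began from lower levels than the small ones. The genes that did not pass had medians of 7.33, 7.61 and 7.4 FPKM in control replicates 1, 2 and 3. The large rises began below this level and the large falls near it. The 314 genes higher by at least 1 log2 had median levels of 3.19, 3.47 and 3.08 FPKM in control replicates 1, 2 and 3 and 11.1, 9.59 and 10.8 FPKM in the sorbitol libraries. The 730 genes lower by at least 1 log2 had median levels of 6, 6.06 and 6.06 FPKM in control and 1.06, 1.04 and 0.96 FPKM with sorbitol. In 332 of these 730 genes (45.5%) every sorbitol library was under 1 FPKM, and in 93 of the 314 (29.6%) every control library was. The genes that rose by less than 1 log2 were at medians of 19.2 to 19.5 FPKM in control and 27.3 to 28.4 with sorbitol, and those that fell by less were at 31.2 to 32.5 and 21.3 to 22.2 FPKM. These medians describe genes chosen by this comparison and are no test of it.

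The same genes were not chosen on the NaCl and H2O2 libraries, although the comparisons share the control libraries. The 314 large rises had medians of 11.8, 15.1 and 14.6 FPKM in NaCl replicates 1, 2 and 3 and of 4.93, 4.68 and 3.83 FPKM in the H2O2 libraries. The 730 large falls had medians of 1.92, 1.94 and 1.29 FPKM with NaCl and 4.23, 4.5 and 4 FPKM with H2O2. The NaCl medians lay on the sorbitol side of the control medians, and the H2O2 medians lay between control and sorbitol. Tested directly in a limma fit of all 12 libraries, sorbitol differed from NaCl in 5686 of the 21985 genes (25.9%), 3383 higher with sorbitol and 2303 lower. The filter used the control and sorbitol libraries alone, so genes reaching 1 FPKM mainly with NaCl were left out. The split by direction is therefore not even-handed, and no other filter or scaling was tried for it.

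Ranked by the H2O2 libraries, a ranking that uses neither group, 3 of the 10 highest genes fell, 1 rose and 6 did not pass. That is near the share of the whole band at 1000 FPKM and over, where 35.2% were called, against 19.9% of all tested genes, so it says nothing particular about the 10. The gene of rank 1, c19532_g1, was at 33483, 34365 and 26627 FPKM in control replicates 1, 2 and 3 and at 17174, 13178 and 15138 FPKM with sorbitol. The groups did not overlap, and it fell by 1.05 ± 0.13 (SE) on the log2 scale (limma adjusted p = 0.0022). The gene of rank 2, c30888_g1, was at 34280, 34833 and 24761 FPKM in control and at 14127, 10807 and 14788 FPKM with sorbitol. Control replicate 3 was the lowest control library for both genes and still lay above every sorbitol library. The log2 fold change of c30888_g1 was -1.24 ± 0.17 (SE, limma adjusted p = 0.0031). These were the largest losses of mean FPKM among called genes. Rank 4 had the largest fold among the 10, from 17649, 18568 and 12799 FPKM in control to 4318, 2987 and 4057 FPKM with sorbitol (-2.11 ± 0.18, limma adjusted p = 0.00053).

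Rank 3 was at 18573, 18406 and 19773 FPKM in control and at 17183, 17899 and 16751 FPKM with sorbitol, and it did not pass (-0.13 ± 0.07, limma adjusted p = 0.22). The genes of ranks 5 and 6 did not pass either, with log2 fold changes of -0.06 ± 0.08 and -0.05 ± 0.07, and their groups overlapped. Ranks 3, 8 and 10 did not pass although their sorbitol and control libraries did not overlap. The component of c30888_g1, the set of assembled sequences that the ID joins, held 3 other tested genes. The gene next in level was at 3700, 3808 and 3535 FPKM in control and at 1920, 1823 and 1944 FPKM with sorbitol, and it fell too (-0.96 ± 0.06, limma adjusted p = 0.00016). Reads of such neighbours may be divided between them, so their values are not fully separate. The other 2 did not pass.

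The largest gains of FPKM were in c31377_g2 and c31543_g2. The gene c31377_g2 was at 2848, 3080 and 2800 FPKM in control and at 5439, 5574 and 5991 FPKM with sorbitol. All sorbitol libraries were higher than all control libraries, and the log2 fold change was 0.96 ± 0.07 (SE, limma adjusted p = 0.00026). With NaCl it was higher still, at 10086, 9168 and 9429 FPKM, and sorbitol minus NaCl was -0.75 ± 0.18 on the log2 scale (limma adjusted p = 0.0075). With H2O2 it was at 2462, 3772 and 1925 FPKM, around the control values. The gene c31543_g2, of rank 9 in the H2O2 libraries, was at 6685, 6277 and 6018 FPKM in control and at 8001, 7623 and 7560 FPKM with sorbitol. Its change was small (0.29 ± 0.07, limma adjusted p = 0.021) and lost the threshold without control replicate 2 (0.087) or 3 (0.066), without sorbitol replicate 1 (0.057) or 3 (0.057), and under median-ratio scaling (0.19), among others.

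In sum, the falling genes held more of the FPKM in control than the rising ones, and with sorbitol they held less. The genes called lower held 25.6%, 25.7% and 22.8% of the summed FPKM in control replicates 1, 2 and 3 and 14.9%, 13.9% and 14.6% with sorbitol. The genes called higher held 11%, 10.9% and 11.3% in control and 16.8%, 16.7% and 17.2% with sorbitol. These sets were chosen on the same 6 libraries, so the shares are a description. Abundant genes weigh most in such shares. Among the lower genes, c19532_g1 went from a mean of 31492 FPKM in control to 15163 with sorbitol, and c30888_g1 from 31291 to 13241. In the libraries that did not choose them, the lower genes held 10% to 11.7% with NaCl and 20.1% to 23.3% with H2O2, and the higher genes 20.3% to 21.2% and 11.7% to 12.3%. The 10 highest genes of each library, whichever they were, held 13.6%, 13.7% and 12.1% of summed FPKM in control and 9.69%, 9.32% and 9.69% with sorbitol. The groups did not overlap, and the two-sided exact permutation test gave p = 0.1, the smallest that 3 against 3 libraries allow.

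**Figure D3:**
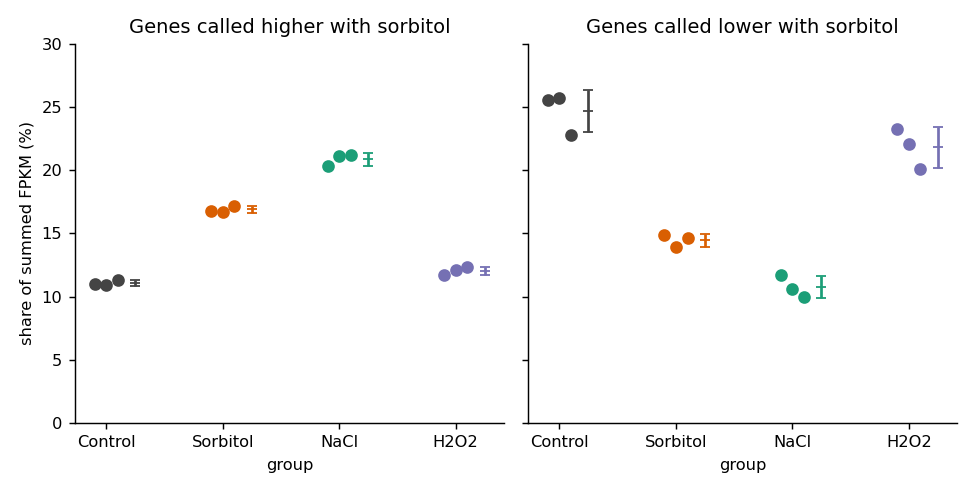
Points give, for each of the 12 libraries, the share of summed FPKM held by the genes called higher (left) and lower (right) with sorbitol against control, and the bars beside them give the mean and SD of 3 libraries. Lower genes went from 22.8% to 25.7% in control to 13.9% to 14.9% with sorbitol, and the NaCl and H2O2 libraries were not used to choose the genes.

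The steepest rises began at control means of 1.45 to 172 FPKM and reached means of 17.8 to 1385 FPKM with sorbitol. The 10 steepest on the log2(FPKM + 1) scale, among called genes with a mean of at least 5 FPKM and no overlap, had log2 fold changes of 3.0 to 4.33 (limma adjusted p of 0.012 or lower). The steepest was at 33.4, 32.1 and 35.8 FPKM in control and at 679.2, 529.1 and 935.6 FPKM with sorbitol, a change of 4.33 ± 0.18 (SE). With a pseudocount of 0.1 its change was 4.36, behind rank 2 at 4.46 and rank 4, which moved from 3.39 to 5.62. It was at 1641 to 1800 FPKM with NaCl and at 22 to 52.2 FPKM with H2O2, so the H2O2 libraries lay on both sides of the control values. The second was at 5.23, 2.95 and 2.61 FPKM in control and at 86.5, 63.4 and 85.1 FPKM with sorbitol. Next came a gene at 5.63, 7.14 and 5.23 FPKM in control and at 98.8, 96 and 131.4 FPKM with sorbitol. Both of these stood well clear of control in every sorbitol library.

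Of these, the gene of rank 10 reached the highest level of the 10, from 185.6, 166.8 and 163.7 FPKM in control to 1389, 1243 and 1523 FPKM with sorbitol (3.0 ± 0.09, limma adjusted p = 1.5e-05). It was at 76.7, 155.9 and 86.5 FPKM with H2O2, below each control library. The mean with NaCl was above the mean with sorbitol for all 10 genes, and the direct test was passed by 8 of them. The exceptions were rank 10 (sorbitol minus NaCl -0.48 ± 0.20, limma adjusted p = 0.096) and rank 4 (-0.30 ± 0.53, limma adjusted p = 0.73). The gene of rank 4 was at 4.36, 0 and 0 FPKM in control and at 14, 24.2 and 15.4 FPKM with sorbitol. It was as high with H2O2, at 21.4, 22.8 and 16.4 FPKM. Rank 9 was uneven among the sorbitol libraries, at 40.7, 20 and 94.2 FPKM, against 7.65, 5.2 and 1.84 FPKM in control.

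The steepest falls ended at means of 0 to 14 FPKM in the sorbitol libraries, from 11.3 to 172.5 FPKM in control. The 10 steepest on the log2(FPKM + 1) scale had log2 fold changes of -5.23 to -3.55 (limma adjusted p of 0.0062 or lower). In 5 of them every sorbitol library was under 1 FPKM, so these were tested only because all 3 control libraries reached it. Rank 8 was at 0 in every H2O2 library, so the filter on the H2O2 libraries left it out. The steepest was at 109.5, 86.1 and 130.6 FPKM in control and at 2.58, 1.36 and 1.81 FPKM with sorbitol (-5.23 ± 0.20, SE). The order and size of the falls depended on the pseudocount. At 0.1 this gene was at -5.78, 7 others of the 10 were steeper, and 7 of the 10 changes grew by over 1.5 times. It was at 103.7, 172 and 71.5 FPKM with NaCl, overlapping control, and sorbitol minus NaCl was -5.25 ± 0.36 (limma adjusted p = 4.9e-06). With H2O2 it was at 27.3, 46.3 and 16.1 FPKM, below all control libraries and above all sorbitol libraries. The second was at 20.7, 16.4 and 21.7 FPKM in control and at 0.02, 0.06 and 0 FPKM with sorbitol, a change of -4.32, or of -7.30 with a pseudocount of 0.1. The other libraries were uneven for this gene, at 6.22, 14.6 and 0.55 FPKM with NaCl and 1.64, 6.2 and 0.61 FPKM with H2O2. Next came a gene at 25, 6.2 and 25.3 FPKM in control and listed at 0 in all 3 sorbitol libraries.

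The mean with NaCl was above the mean with sorbitol for all 10 of these genes, and the direct test was passed by 6. They were chosen for low sorbitol values, which that test shares. Nearest to control with H2O2 was rank 7, at 5.76, 24.6 and 20.4 FPKM against 23.9, 15.9 and 14.4 FPKM. Rank 6 was low in all treated groups, at 0 to 1.17 FPKM with sorbitol, 0 to 2.11 with NaCl and 1.22 to 3.27 with H2O2, against 14.9, 24 and 12.5 FPKM in control. Rank 10 kept the most, at 15.2, 16.6 and 10 FPKM with sorbitol against 201.5, 140.3 and 175.8 FPKM in control. Its H2O2 libraries ran from 16 to 254 FPKM, so a mean would say little there.

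**Figure D4:**
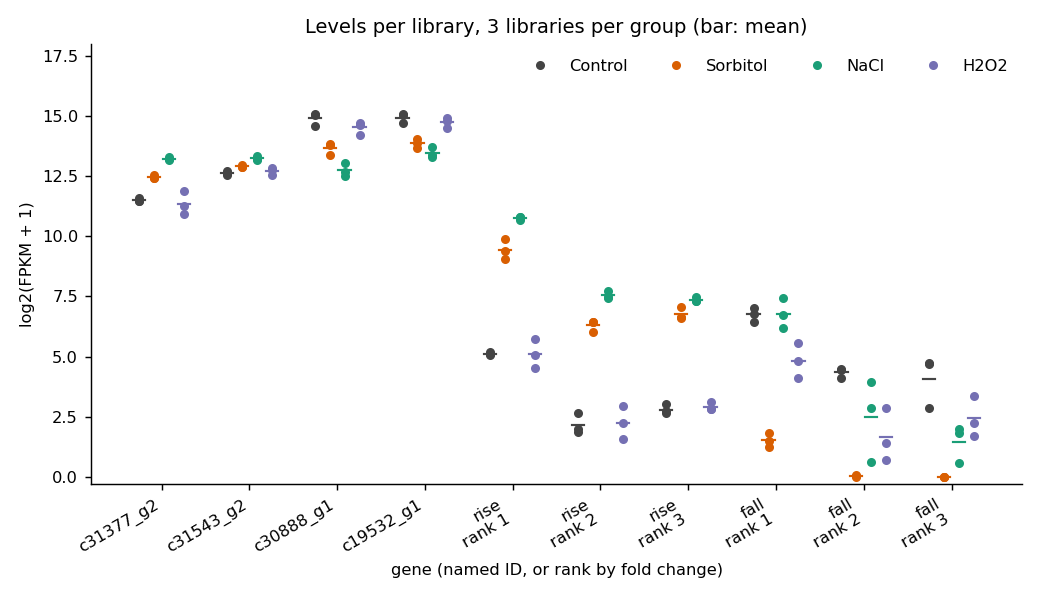
Points give log2(FPKM + 1) in each of the 3 libraries of control, sorbitol, NaCl and H2O2, and bars the mean, for the 2 genes with the largest gain and the 2 with the largest loss of FPKM, and for the 3 steepest rises and 3 steepest falls by rank. In each of the 10 columns the sorbitol points do not overlap the control points, and the falls of ranks 2 and 3 sit at or near 0 with sorbitol.

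Many genes listed at low levels in control were listed at 0 with sorbitol, more than the reverse. In the unfiltered table, 29339 genes were above 0 in all 3 control libraries, and 1791 of these (6.1%) were at 0 in all 3 sorbitol libraries. Of the 27408 genes above 0 in all 3 sorbitol libraries, 358 (1.31%) were at 0 in all 3 control libraries. The levels were low, with a median mean level of 0.56 FPKM in control for the 1791 and 378 of them at 1 FPKM or more. Only 124 of the 1791 and 47 of the 358 reached the filter, and all of these were called; they had to differ to be tested. Being listed at 0 does not show that a gene was silent.

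The imbalance was not the same against each group. Set beside NaCl, 1080 of the 28194 genes above 0 in all 3 NaCl libraries (3.83%) were at 0 in all 3 sorbitol libraries. The other way there were 374 of 27408 (1.36%). Set beside H2O2, the counts were 505 of 26667 (1.89%) and 477 of 27408 (1.74%). The number of genes listed above 0 moved with this, at 38223 ± 1285 (SD, n = 3) with sorbitol, 37827 ± 151.3 with H2O2, 41068 ± 1680 with NaCl and 41622 ± 909.9 in control. The sorbitol and control libraries did not overlap in this number (two-sided exact permutation p = 0.1, the smallest possible). Their relative depth did overlap, with means of 0.968 ± 0.063 and 1.03 ± 0.13. Mean depth was 0.907 ± 0.018 for the H2O2 libraries and 1.01 ± 0.12 for the NaCl libraries. Group means of depth thus ranked in the same order as group means of genes above 0. Single libraries did not all follow this order. Control replicate 2, at a depth of 0.937, listed 41096 genes, and sorbitol replicate 3, at 1.04, listed 38098. The part of depth in these counts was not tested.

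The 1791 genes were uneven in the other libraries. They were above 0 in 69% and 69.3% of cases in NaCl replicates 1 and 2 and in 47.6% in NaCl replicate 3. In H2O2 replicates 1, 2 and 3 they were above 0 in 50.9%, 53.9% and 32.3%. The library numbered 3 was the lowest in both groups. The 358 genes were above 0 in 45% to 52.5% of cases in the NaCl libraries and in 35.8% to 40.8% in the H2O2 libraries.

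**Figure D5:**
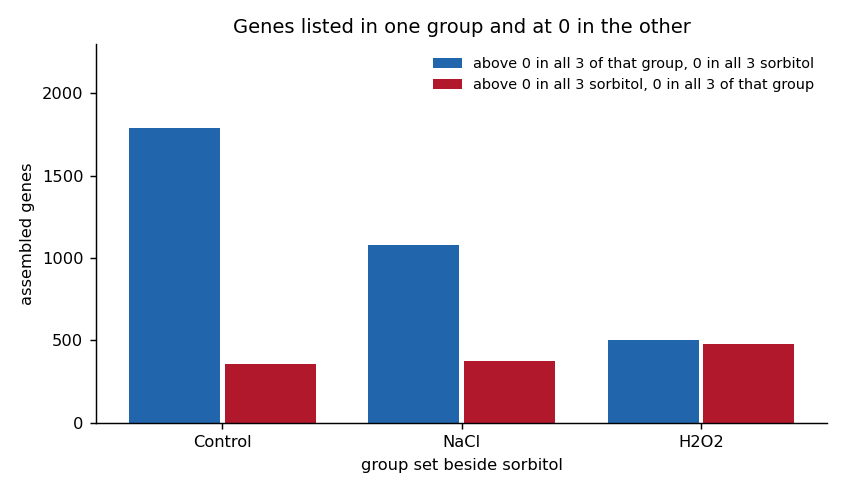
Bars count assembled genes above 0 in all 3 libraries of a group and at 0 in all 3 sorbitol libraries (blue), or the reverse (red), for control, NaCl and H2O2. Control gives 1791 and 358 genes, NaCl 1080 and 374, and H2O2 505 and 477.

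Called genes that share a component more often moved in a single direction than in both. The tested genes fell into 18230 components, of which 2076 held at least 2 tested genes. In 218 components at least 2 genes were called. All called genes rose in 92 of these and all fell in 56, and 70 held both rises and falls. Over all tested genes, 54.2% of calls were higher. How many mixed components unrelated directions would give was not tested. Genes of a component share sequence, so they are not independent observations, and a division of reads between them may add to either outcome, which was not tested.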

How the data were processed

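Libraries of 4 groups with 3 each were mapped to groups and replicate numbers by their titles. Adapter trimming software (cutadapt) and an abundance estimator (RSEM) are listed in the submitters' processing notes. Neither their versions nor the reference is stated in the sources used here. FPKM is the unit in which the authors' deposited values were read. No source states this unit: it was inferred from the values. Their sums differ between libraries (1065190 to 1133348), unlike TPM. Only 0.638% to 0.97% of values above 0 are whole numbers (within 0.005), whereas read counts, RSEM's expected counts included, are mostly whole for genes whose reads map uniquely. Of 82333 genes, 4943 are at 0 in all 12 libraries.

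Genes reaching 1 FPKM in 3 or more of the 6 libraries were put on the log2(FPKM + 1) scale, on which low genes show too small a change. Fold changes came from limma 3.58.1 in R 4.3.3, with a mean-variance trend, fitted to the 6 libraries, and p-values were adjusted by Benjamini-Hochberg over all 21985 genes. The sorbitol-NaCl contrast came from a model of all 12 libraries, over the same 21985 genes. Relative depth came from the most frequent FPKM ratio to each control library among genes from 0.2 to 1.2 FPKM, in windows of 0.05 log2. This step held 11.3% to 26.8% of compared genes over the 12 libraries, and 16% to 26.8% over the 6 control and sorbitol libraries. The log2 ratios to the 3 control libraries were averaged and inverted, and the depths were divided by their mean over the 6 libraries. Exact permutation tests used scipy 1.17.1; Python 3.11.15, pandas 2.3.3, numpy 2.4.6 and matplotlib 3.10.9 were also used.

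The comparison, level bands, alternatives and naming rule were chosen with earlier results of these data known. The IDs have no names, so 2 IDs with the largest gain and 2 with the largest loss of mean FPKM, among called genes without overlap, are printed, and the 10 steepest each way at 5 FPKM or more and the 10 highest in H2O2 are given by rank. At most 3.64% of genes had equal values in a pair of the 6 libraries. The same-numbered libraries of both groups did not deviate together, so numbers were not taken as pairs.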

Additional observations from a re-analysis of the deposited data

How the results depend on the processing

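Counts are given as all calls, higher, lower, higher by at least 1 log2, lower by at least 1 log2, and calls at 20 FPKM or more. They were 4381, 2376, 2005, 314, 730 and 2115 as reported. At an adjusted p of 0.01 they were 1657, 737, 920, 172, 435 and 981 under the stricter threshold. Single-gene components, with fewer genes tested, gave 2456, 1248, 1208, 200, 537 and 1037, and no filter, with 65260 genes to adjust over, gave 2262, 1105, 1157, 196, 483 and 1290. Large changes were 195 higher and 351 lower at a filter of 5 FPKM, and 206 and 432 with the filter on the H2O2 libraries. Median-ratio scaling left 1528 higher genes, and without the mean-variance trend 1262 calls were at 20 FPKM or more; these causes were not tested. Leaving out each library gave 2504 to 3465 calls, 1231 to 1909 higher, 1251 to 1556 lower and 1323 to 1729 at 20 FPKM or more. The level taken from the H2O2 or control libraries kept calls at 20 FPKM or more within 1.5 times the reported count. All 12 libraries in the fit gave 3867 calls and a pseudocount of 0.1 gave 4253, and with it 1 of the 10 steepest rises and 7 of the 10 steepest falls grew by over 1.5 times. Same-numbered control and sorbitol libraries correlated at -0.022 to 0.018 in their deviations, and 1 of 3 correlated best with its own number. With the replicate block the counts were 2713, 1301, 1412, 274, 622 and 1397, and c31543_g2 did not pass (adjusted p = 0.056). Sorbitol against NaCl ran from 4299 to 5309 calls over its alternatives. The share held by the 10 highest genes kept its direction with the 100 highest and without each of the 6 libraries. No named or ranked gene changed sign with the reported or the alternative fit passing the threshold (0). Among genes passing in neither, H2O2 ranks 5 and 6 changed sign with equal sums, from -0.06 to 0.01 and from -0.05 to 0.02. Rank 5 did so without sorbitol replicate 1 as well (0.006). The gene c31543_g2 lost the threshold in 10 of its alternatives. The unknown number of reads limits what the lowest genes can show.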
